A study of Mus musculus with 24 samples.

Results

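The genes described here are 10 components of the MHC class I pathway and its inducible proteasome: H2-K1, H2-D1, B2m, Tap1, Tap2, Tapbp, Psmb8, Psmb9, Psmb10 and Nlrc5. They were selected by name, with no threshold on a measured value, from the 55291 gene names counted in each library. Earlier results of these data were known when they were chosen. The shares over all genes given below therefore describe the set and are not an independent test of it. All 10 genes were among the 16258 kept by the filter on low counts. Their mRNA was measured by RNA-seq in 24 libraries of cultured mouse pulmonary fibroblasts. The cells came from C57BL/6 mice aged 4 to 8 weeks, either WT or labelled TLR4-/-, with each isolate made from a pool of 3 to 4 lungs and used at passages 3 to 6. For 24 h they received vehicle (PBS), recombinant mouse cold-inducible RNA-binding protein (rmCIRP, 1 μg/ml), recombinant mouse TGF-β1 (rmTGF-β1, 2 ng/ml) or the 2 proteins together, which gave 8 conditions of 3 libraries. CIRP is an RNA-binding protein that acts as a danger signal through TLR4 when it is released from cells, and TGF-β1 is a profibrotic cytokine. No label states that the 3 libraries of a condition came from separate isolates or cultures. The study's figure legends give 3 samples per group and 3 repeats of each, without saying what a sample or a repeat was. The p-values therefore measure the spread between these libraries, which may be technical. WT and TLR4-/- cells came from different isolates, and no label gives repeated isolates of a genotype. A difference between the genotypes therefore cannot be told apart from a difference between isolates.

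Nearly all nucleated cells display peptides from their own proteins on MHC class I, where cytotoxic T cells read them. H2-K1 and H2-D1 encode the classical class I heavy chains and B2m their shared light chain, beta-2 microglobulin. Tap1 and Tap2 form the transporter that moves peptides from the cytosol into the endoplasmic reticulum, and Tapbp encodes tapasin, which bridges this transporter and the heavy chain while peptide is loaded. Psmb8, Psmb9 and Psmb10 encode catalytic subunits that replace the constitutive subunits of Psmb5, Psmb6 and Psmb7 in the immunoproteasome, and Nlrc5 encodes the transactivator that acts on class I promoters. Interferons are the best-known inducers of the whole set.

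The promoters of the heavy chain and light chain genes are shown first because the members' regulation is classically described through short elements in them. These are windows of 250 bases before to 50 bases after the RefSeq start site on GRCm38.p6, read 5′ to 3′ on the gene's strand: H2-K1 at chr17:34000298-34000597 (minus strand), H2-D1 at chr17:35262844-35263143 (plus strand), B2m at chr2:122147437-122147736 (plus strand) and Tap1 at chr17:34187306-34187605 (plus strand). Capitals mark the NF-kB motif and the IRF core (AANNGAAA) in the first 3 genes, and the cores of the X2 box (TGACG) and the Y box (ATTGG) in all 4. Each motif was searched on both strands, so that some are printed as their reverse complement.
H2-K1: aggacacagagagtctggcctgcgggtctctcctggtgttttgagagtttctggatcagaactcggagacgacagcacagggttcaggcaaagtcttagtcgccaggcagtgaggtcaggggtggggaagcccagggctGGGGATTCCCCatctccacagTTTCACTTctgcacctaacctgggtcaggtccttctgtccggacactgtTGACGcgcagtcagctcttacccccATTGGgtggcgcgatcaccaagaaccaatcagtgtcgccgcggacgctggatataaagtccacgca
H2-D1: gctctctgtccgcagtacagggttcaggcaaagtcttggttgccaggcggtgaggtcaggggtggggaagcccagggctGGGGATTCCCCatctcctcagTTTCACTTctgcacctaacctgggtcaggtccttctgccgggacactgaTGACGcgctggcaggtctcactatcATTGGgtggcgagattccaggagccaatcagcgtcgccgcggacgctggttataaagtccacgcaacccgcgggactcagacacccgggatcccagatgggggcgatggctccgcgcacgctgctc
B2m: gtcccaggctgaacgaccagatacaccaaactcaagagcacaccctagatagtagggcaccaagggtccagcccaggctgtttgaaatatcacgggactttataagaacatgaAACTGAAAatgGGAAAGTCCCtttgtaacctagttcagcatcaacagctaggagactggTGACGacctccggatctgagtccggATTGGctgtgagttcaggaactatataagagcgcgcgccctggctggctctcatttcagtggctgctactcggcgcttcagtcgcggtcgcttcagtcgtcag
Tap1: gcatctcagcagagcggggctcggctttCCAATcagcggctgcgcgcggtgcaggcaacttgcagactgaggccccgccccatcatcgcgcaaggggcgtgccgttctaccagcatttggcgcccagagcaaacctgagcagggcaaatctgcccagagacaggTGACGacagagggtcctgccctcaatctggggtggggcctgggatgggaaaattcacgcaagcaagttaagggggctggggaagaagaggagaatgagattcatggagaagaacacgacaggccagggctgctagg
In H2-K1, H2-D1 and B2m the X2 core was followed on the same strand by the Y core after a gap of 20 bases. This spacing was noticed after the sequences had been read. It was present in 27 of the 27025 genes with a window in the table (0.0999%), and H2-M3, a further class I gene, was another of them. In Tap1 both cores were present without that spacing, the Y core on the opposite strand and farther from the start site. The Tap1 and Psmb9 windows lie head to head and share 275 bases, so they hold the same 2 cores. A second match to the Y core, on the minus strand, lies in the H2-K1 and H2-D1 windows, and a second match to the X2 core in that of B2m, and these are left in lower case.

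Of the 8 members with a window, 3 held the IRF core and the NF-kB motif, namely H2-K1, H2-D1 and B2m. The IRF core was found in 26.7% of all genes with a window and the NF-kB motif in 5.14%. The X2 core was found in 5 of the 8 members and in 6228 of the 27025 genes, and the Y core in 6 of the 8 and 41.1%. A GAS motif (TTCNNNGAA, a palindrome that reads alike on both strands) was found in Psmb8 alone among the 8, and in 9.55% of all genes. None of the 5 motifs was found in the Psmb10 window. The H2-K1 and H2-D1 windows were identical at 73.3% of the 240 bases compared without gaps. A match describes the letters in these windows and is not evidence of binding.

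Between 29853346 and 39664606 reads per library were assigned to genes, with a median of 33585047. None of 14 fibroblast markers was at 0 throughout any condition, and their summed normalized count was between 766760 and 1033300 in all 24 libraries. Lymphocyte markers were near absent, with a sum of at most 64.9 over 13 genes. Macrophage transcripts were present in the cultures: the sum over 18 markers was 95561 to 104097 in WT PBS libraries and 367083 to 420286 in TLR4-/- PBS libraries. Tlr4 mRNA itself was not lower in the libraries labelled TLR4-/-: with PBS it was 718, 758 and 802 normalized counts in WT and 891, 892 and 927 in TLR4-/-, a log2 fold change of 0.25 ± 0.06 (SE, edgeR adjusted p = 0.00123). The Tlr4 mRNA level therefore does not check that label, and the name is used as the label gives it. Chi-square per degree of freedom between replicate libraries was 2.55 at the lowest, so none of them were repeats of another within counting error. Its median was 4.82, and replicate 3 of the TLR4-/- libraries with both proteins stood apart, at 47.1 and 32.4 against the other two.

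rmCIRP raised the whole set in WT cells. All 10 members were higher with rmCIRP than with PBS at an adjusted p under 0.1, against 19.8% of all genes called higher, and in all 10 the 3 rmCIRP libraries lay above the 3 PBS libraries, against 23.9% of all genes. The median log2 fold change was 1.26 over the members and -0.02 over all genes tested. Folds ran from 1.43 for B2m to 9.01 for Nlrc5. Here and elsewhere in bulk RNA, a change in the number of expressing cells and a change in mRNA per cell cannot be told apart.

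**Figure D1:**
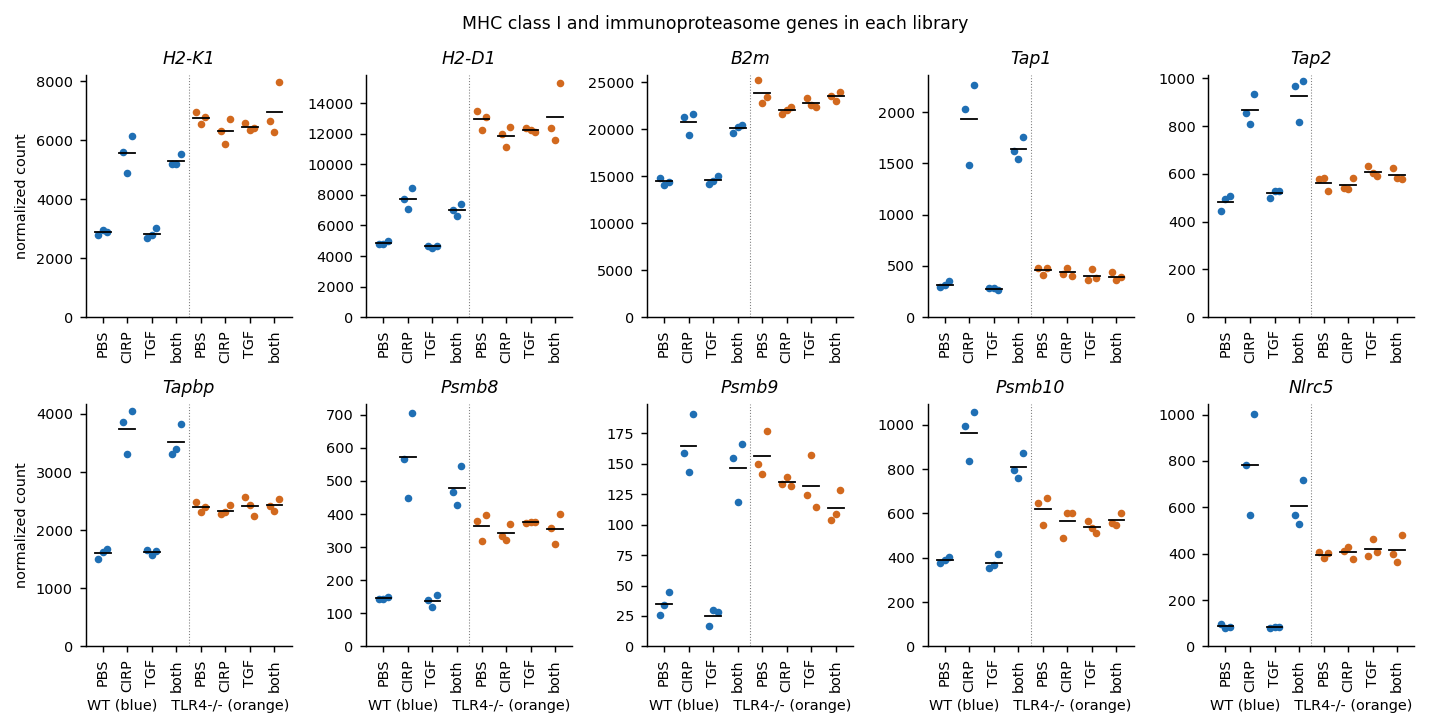
Normalized count (linear axis from 0) of each of the 10 genes in each of the 24 libraries, by condition; a point is a library, a black line the mean of 3, blue is WT and orange is labelled TLR4-/-. In WT the rmCIRP libraries stand above the PBS libraries for every gene, with Nlrc5 at 568 to 1001 against 78.9 to 96.2, while the 4 TLR4-/- conditions of each gene lie close together.

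The transactivator Nlrc5 had the largest fold. The WT PBS libraries held 78.9, 84.3 and 96.2 normalized counts, and the WT rmCIRP libraries 568, 782 and 1001. The libraries did not overlap, although the rmCIRP libraries spread widely among themselves (mean 784 ± 216, SD, n = 3). The log2 fold change was 3.17 ± 0.18 (SE, edgeR adjusted p = 2.63e-12).

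Among the peptide transport genes, Tap1 rose far more than its partner Tap2. Tap1 was at 293, 312 and 350 with PBS and at 1487, 2033 and 2265 with rmCIRP (log2 fold change 2.60 ± 0.13, SE). Tap2 was at 443, 496 and 507 with PBS and at 808, 855 and 936 with rmCIRP (log2 fold change 0.84 ± 0.07, SE). Neither gene's libraries overlapped between the treatments. Tapbp, the tapasin gene, went from 1509, 1623 and 1676 to 3309, 3866 and 4049, a log2 fold change of 1.22 ± 0.07 (SE). The 95% confidence intervals of Tap1 (2.33 to 2.86) and Tap2 (0.69 to 0.99) lay apart.

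The immunoproteasome genes rose by more than the class I chains. Psmb9 went from 26.0, 33.9 and 44.8 with PBS to 143, 159 and 191 with rmCIRP (log2 fold change 2.24 ± 0.19, SE). Psmb8 went from 143, 144 and 150 to 448, 568 and 704, a log2 fold change of 1.97 ± 0.14 (SE). Psmb10 went from 375, 391 and 405 to 836, 996 and 1060, a log2 fold change of 1.30 ± 0.10 (SE). No library with PBS reached the level of any library with rmCIRP in these 3 genes.

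The heavy and light chains, the most abundant members, rose by less than 2-fold, as did Tap2. H2-K1 went from 2790, 2875 and 2974 with PBS to 4904, 5601 and 6161 with rmCIRP (log2 fold change 0.94 ± 0.08, SE). H2-D1 went from 4778, 4805 and 4973 to 7072, 7721 and 8471, a log2 fold change of 0.67 ± 0.08 (SE). B2m went from 14105, 14433 and 14834 to 19436, 21305 and 21645, a log2 fold change of 0.52 ± 0.04 (SE). All 3 genes were separated between the treatments, and the largest adjusted p among the 10 members was that of H2-D1, 2.92e-07 (edgeR).

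Per kb of exon, the order of levels in WT PBS libraries was led by the chains. B2m was at 16811 ± 424 normalized counts per kb (SD, n = 3), H2-D1 at 2308 ± 50.2 and H2-K1 at 1740 ± 55.7. Tapbp followed at 553 ± 29.4, Psmb10 at 298 ± 11.3, Tap2 at 140 ± 9.99, Tap1 at 108 ± 9.82 and Psmb8 at 89.5 ± 2.24. Psmb9 at 25.8 ± 6.97 and Nlrc5 at 10.6 ± 1.09 were the lowest. With rmCIRP the order changed at 1 place: Tap1 (653 ± 135) and Psmb8 (352 ± 78.9) stood above Tap2 (252 ± 18.8). The lowest Psmb8 library (275) was just above the highest Tap2 library (272).

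Because the inducible and constitutive catalytic subunits compete for the same places in the proteasome, each pair was also expressed as a share of its summed mRNA level per kb. In WT cells the share of Psmb9 in the Psmb9 and Psmb6 pair was 0.471% ± 0.128 (SD, n = 3) with PBS and 2.02% ± 0.259 with rmCIRP. The share of Psmb10 in its pair with Psmb7 was 14.1% ± 0.767 and 27.7% ± 2.31, and that of Psmb8 in its pair with Psmb5 was 3.94% ± 0.0532 and 13.4% ± 2.48. In each pair the lowest rmCIRP library was above the highest PBS library. The constitutive partners changed little: log2 fold changes were 0.05 for Psmb5 (adjusted p = 0.353, edgeR), 0.11 for Psmb6 (adjusted p = 0.0115) and 0.07 for Psmb7 (adjusted p = 0.0669). These are shares of mRNA and do not measure the subunits in assembled proteasomes. Of Psmb7 exon bases, 34.91% are shared with Nek6 on the opposite strand, and of Psmb5 exon bases 12.12% with Mir686. Reads there could have been left out by the counting, so the absolute shares are approximate.

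**Figure D2:**
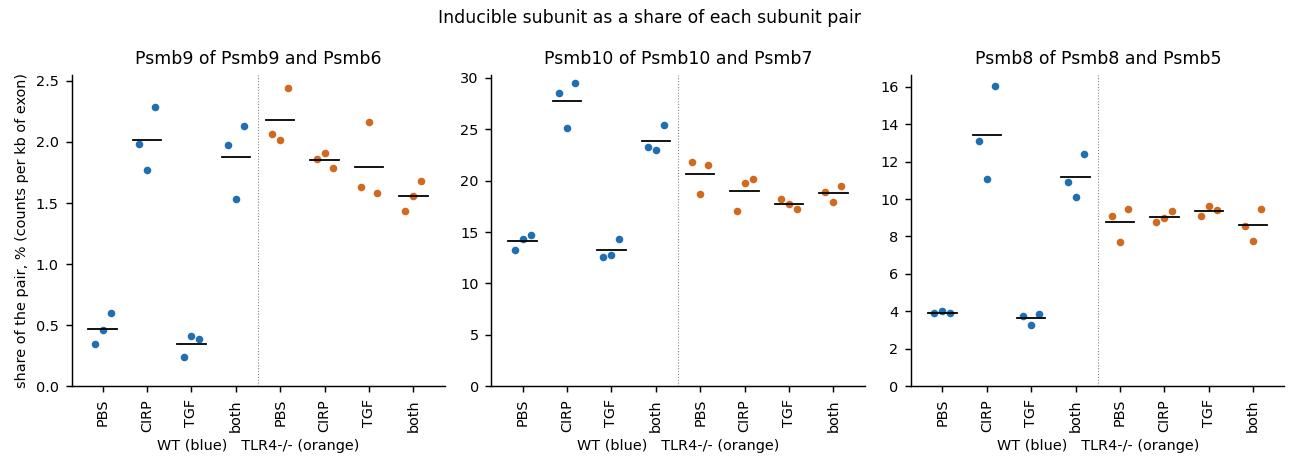
Share (%) of the inducible subunit in each inducible and constitutive pair, from normalized counts per kb of exon, by library and condition; a point is a library, a black line the mean of 3, blue is WT and orange is labelled TLR4-/-. Psmb8 is at 11.1% or more in WT rmCIRP libraries against 3.89 to 4.00% in WT PBS libraries, and lies between 7.72 and 9.47% in TLR4-/- PBS libraries.

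The rest of the class I pathway was read from fixed lists. In WT cells with rmCIRP against PBS, 19.8% of all 16258 genes tested were called higher and 3918 genes lower. Of 16 other class I and class I-like genes tested, 10 were higher with rmCIRP in WT cells and 2 lower, with a median log2 fold change of 1.18. H2-M2 rose from 6.24 to 11.5 normalized counts to 201 to 296, a log2 fold change of 4.66, and H2-Q4 from 133 to 160 to 701 to 1105, a log2 fold change of 2.65. The 2 that fell were Fcgrt, the neonatal Fc receptor, by 0.28 and Hfe, an iron regulator, by 0.27 on the log2 scale. Class I genes of this region resemble each other, and 9.63% of H2-K1 and 12.77% of H2-D1 runs of 50 transcript bases also occur in another gene, most often an H2-Q gene, so reads could be moved between them or left out by the counting. B2m and Psmb10 shared no such run with another gene.

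Of 12 genes for peptide loading and trimming, 6 were higher with rmCIRP and 0 lower (median log2 fold change 0.10). Erap1, the aminopeptidase that trims peptides in the endoplasmic reticulum, rose by 0.58 and the chaperone Hspa5 by 0.37 on the log2 scale. In the other core subunits and assembly factors of the proteasome, 11 of 19 were higher and 0 lower (median 0.11), with Psma6 at 0.63 and Psmg4 at 0.39. Of 18 subunits of the 19S cap, 10 were higher and 0 lower (median 0.09, highest 0.21 for Psmd11). Among 4 proteasome activator genes 3 were higher: Psme2 went from 1409 to 1520 normalized counts to 2704 to 3193 (log2 fold change 0.98) and Psme1 from 1051 to 1141 to 1340 to 1733 (log2 fold change 0.50). Psme1 and Psme2 encode the subunits of the PA28 activator, which is classically induced with the immunoproteasome. The median change of each of these 4 lists was below that of the 10 members, although Psme2 rose by more than H2-K1, Tap2, H2-D1 and B2m.

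**Figure D3:**
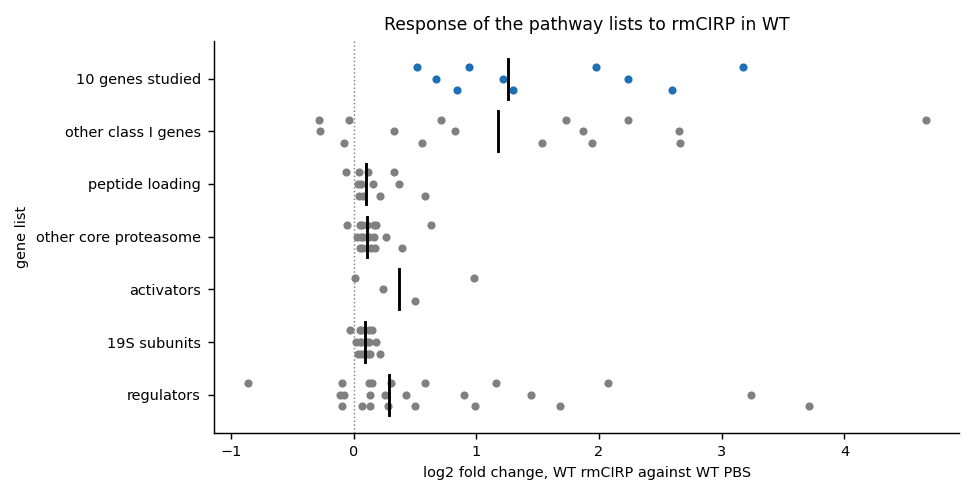
Log2 fold change of each gene tested, WT rmCIRP against WT PBS, by list; a point is a gene, a black bar the median of the list, blue marks the 10 members and grey the other lists. The members' median is 1.26 and that of the other class I genes 1.18, while the other core proteasome subunits and the 19S subunits have medians of 0.11 and 0.09.

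The regulators known to act on the class I genes included some of the largest changes. Of 24 tested, 16 were higher and 3 lower with rmCIRP in WT cells, with a median log2 fold change of 0.29. Stat2, a transcription factor of the type I interferon pathway, went from 505 to 540 normalized counts to 4299 to 5496 (log2 fold change 3.24). Irf1, which binds the interferon element of class I promoters, went from 411 to 441 to 885 to 1064 (log2 fold change 1.16). Rfx5, a subunit of the RFX complex that binds beside the X2 box, was at 294 to 332 with PBS and 328 to 358 with rmCIRP (log2 fold change 0.13, adjusted p = 0.218, edgeR). The 3 that fell were Irf8, a factor of the myeloid lineage, by 0.86, Creb1, of the family that binds the X2 box, by 0.12, and the interferon gamma receptor gene Ifngr1, by 0.10 on the log2 scale. Ifng had 0 reads in all 24 libraries, and Ifnb1 had at most 3 reads in any library. For 1 library taken alone, a count of 0 leaves room for an expected count of up to about 3.

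rmCIRP was also compared with no rmCIRP in the presence of rmTGF-β1. All 10 members were higher in WT cells with both proteins than with rmTGF-β1 alone, without overlap, against 20.5% of all genes called higher and 24.9% higher without overlap. The median log2 fold change was 1.10, from 0.46 for B2m to 2.85 for Nlrc5. Nlrc5 was at 80.7, 84.0 and 85.4 normalized counts with rmTGF-β1 and at 527, 566 and 718 with both. Tap1 was at 264, 282 and 285 with rmTGF-β1 and at 1540, 1618 and 1753 with both. With rmCIRP alone, Nlrc5 was at 568 to 1001 and Tap1 at 1487 to 2265, which overlapped the ranges with both proteins. The interaction of the 2 proteins passed the threshold for 0 of the 10 members (estimates from -0.32 for Nlrc5 to 0.30 for Psmb9 on the log2 scale, smallest adjusted p 0.939, edgeR), against 0.0492% of all genes. With 0 calls by edgeR, 0 of the 10 also had an unadjusted p under 0.05.

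rmTGF-β1 alone did not move the set by a detectable amount in WT cells. Of the 10 members 0 were called against PBS (edgeR), against 12.4% of all genes, and 0 had an unadjusted p under 0.05. Log2 fold changes ran from -0.47 for Psmb9 to 0.10 for Tap2, with a smallest adjusted p of 0.321. Psmb9 was at 17.1, 27.9 and 30.0 normalized counts with rmTGF-β1 and overlapped its PBS libraries, and its 95% interval (-1.01 to 0.08) was the widest. The rmTGF-β1 libraries of 2 members, Tap1 and H2-D1, all lay below the PBS libraries, as for 15.6% of all genes: Tap1 was at 264 to 285 against 293 to 350, and H2-D1 at 4540 to 4681 against 4778 to 4973.

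When both proteins were compared with rmCIRP alone in WT cells, 2 members were called lower, against 10.5% of all genes called lower. The median log2 fold change was -0.16 over the members and -0.01 over all genes, and only 1 member, Tap2, was above 0. An unadjusted p under 0.05 (edgeR) was found for 4 of the 10, beside 4498 of all 16258 genes tested. Nlrc5 was lower by 0.38 ± 0.14 (SE, adjusted p = 0.0711) and Psmb10 by 0.26 ± 0.09 (SE, adjusted p = 0.056, both edgeR). The libraries overlapped for both genes: Nlrc5 was at 527 to 718 with both proteins and 568 to 1001 with rmCIRP, and Psmb10 at 761 to 871 and 836 to 1060. The 2 calls rested on single libraries. Without WT rmCIRP replicate 1 or 3, or without replicate 1 or 2 of the combined treatment, 0 members were called, and without WT rmCIRP replicate 2 the count was 5.

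In cells labelled TLR4-/-, rmCIRP moved none of the 10 members past the threshold. The count was 0 of 10 with edgeR, beside 0% of all genes, and 1 member (B2m) had an unadjusted p under 0.05. With DESeq2 it was also 0 of 10 members, beside 32 genes in all. Log2 fold changes ran from -0.21 for Psmb9 to 0.04 for Nlrc5, with a smallest adjusted p of 0.565. Nlrc5 was at 380, 401 and 406 normalized counts with PBS and at 377, 413 and 429 with rmCIRP. Tap1 was at 415, 476 and 480 with PBS and at 406, 420 and 483 with rmCIRP. Both genes overlapped between the treatments, while the rmCIRP libraries of B2m and Psmb9 lay below their PBS libraries, as for 7.91% of all genes. The 95% intervals of the 10 members lay between -0.53 and 0.36, which leaves out changes of the size measured in WT for each member. None of the genes in the pathway lists was called in this comparison either.

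**Figure D4:**
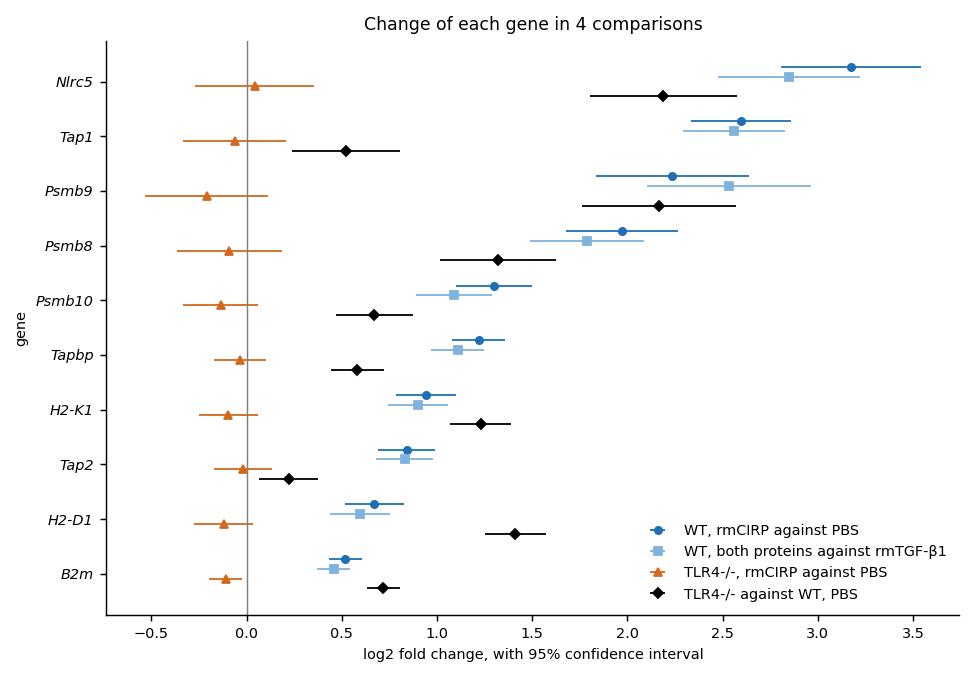
Log2 fold change of each member with its 95% confidence interval in 4 comparisons, ordered by the response to rmCIRP in WT. The response to rmCIRP in WT runs from 0.52 (B2m) to 3.17 (Nlrc5), and the same contrast in libraries labelled TLR4-/- lies between -0.21 and 0.04.

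Whether rmCIRP acted differently in the 2 genotypes was tested as a contrast of its own. The contrast passed the threshold for all 10 members, each with the smaller response in TLR4-/- cells, against 14.3% of all genes in that direction. The estimates ran from -0.63 ± 0.06 (SE) for B2m to -3.13 ± 0.24 for Nlrc5 on the log2 scale, with a largest adjusted p of 7.39e-06 (edgeR). Of the other class I genes, 10 of 16 differed in the same direction and 1 in the other. Irf1 (-1.07) and Psme2 (-0.95) also had the smaller response in TLR4-/- cells.

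rmTGF-β1 against PBS gave 0 calls of 10 in TLR4-/- cells, against 23.9% of all genes, and 1 member (Psmb10) had an unadjusted p under 0.05. Both proteins gave 0 calls of 10 against rmTGF-β1, beside 2.69% of all genes, with no unadjusted p under 0.05 (edgeR). They gave 0 calls of 10 against rmCIRP, beside 32.8% of all genes, with 1 unadjusted p under 0.05. Without replicate 3 of the combined treatment, which stood apart, the counts of members in the last 2 comparisons were also 0, and 1 gene in all was called against rmTGF-β1. Over these 3 comparisons the members' log2 fold changes lay between -0.26 and 0.14, and Psmb9 had the lowest value in each. The genotypes' responses to rmTGF-β1 differed for 0 of 10 members, beside 0.0861% of all genes. In the TLR4-/- libraries with both proteins, replicate 3 stood above the other two for H2-K1 (7966 against 6275 and 6670) and H2-D1 (15324 against 11596 and 12373).

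The level of the set without any added protein also differed between the genotypes, where genotype and isolate cannot be told apart. With PBS, all 10 members were higher in TLR4-/- than in WT libraries and without overlap, against 23.2% of all genes called higher and 25.5% higher without overlap. The median log2 fold change was 0.97 over the members and -0.02 over all genes. Nlrc5 (380, 401 and 406 against 78.9, 84.3 and 96.2) had a log2 fold change of 2.19 ± 0.19 (SE), and Psmb9 (142, 150 and 177 against 26.0, 33.9 and 44.8) one of 2.17 ± 0.19. Of the heavy chains, H2-D1 (12231, 13115 and 13479 against 4778, 4805 and 4973) was at 1.41 ± 0.08 and H2-K1 (6562, 6781 and 6948 against 2790, 2875 and 2974) at 1.23 ± 0.08. Psmb8 was higher by 1.32 on the log2 scale, B2m by 0.72, Psmb10 by 0.67, Tapbp by 0.58, Tap1 by 0.52 and Tap2 by 0.22 (adjusted p = 0.0202, edgeR).

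The order of the members in this comparison was not that of the response to rmCIRP. Tap1, which rose 6.04-fold with rmCIRP in WT, was 1.44-fold higher in TLR4-/- than in WT with PBS. H2-D1, which rose 1.59-fold with rmCIRP, was 2.66-fold higher. Both comparisons share the WT PBS libraries. The shares of inducible subunit mRNA in TLR4-/- PBS libraries were 2.18% ± 0.232 (SD, n = 3) for Psmb9, 20.7% ± 1.73 for Psmb10 and 8.77% ± 0.926 for Psmb8, all above WT PBS. The pathway lists had smaller medians: 0.39 for the other class I genes (9 higher and 2 lower of 16), -0.10 for peptide loading (3 higher and 7 lower of 12), 0.00 for the other core proteasome genes (3 higher and 7 lower of 19), 0.05 for the activators (1 higher and 1 lower of 4) and -0.09 for the 19S subunits (1 higher and 12 lower of 18). Over all 16258 genes tested, 23.2% were called higher and 3900 genes lower in this comparison. Of 24 regulators, 11 were higher and 4 lower. Irf1 was higher by 0.22 and Irf8 by 2.06 on the log2 scale.

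Macrophage markers moved with this genotype difference. All 18 were higher in TLR4-/- than in WT PBS libraries, with a median log2 fold change of 2.22, and none was at 0 throughout any condition. Macrophages express every member of the class I set, and the part of these transcripts in the genotype difference was not tested. In the response of WT cells to rmCIRP the same list fell in its sum, from 95561 to 104097 with PBS to 84454 to 90068 with rmCIRP, with 11 markers lower and 6 higher. Without Lyz2, the most abundant marker, the sum was 21554 to 23995 with PBS and 24022 to 26164 with rmCIRP. Within TLR4-/- cells the sum was 354219 to 402500 with rmCIRP and overlapped the PBS libraries.

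Other marker lists moved too, and their part in the members' changes was not tested. For these lists and the macrophage markers, the calls over all 16258 genes are the measure. They were 19.8% higher and 3918 genes lower with rmCIRP in WT. In TLR4-/- against WT with PBS they were 23.2% higher and 3900 genes lower. In WT cells the fibroblast sum was 914882 to 980169 with PBS and 766760 to 816618 with rmCIRP, with 10 of 14 markers lower and 2 higher (median log2 fold change -0.25). The sum of 10 dendritic cell and neutrophil markers was 349 to 372 with PBS and 548 to 625 with rmCIRP, with 2 of the 3 tested called higher. Of these 10 genes, 4 were at 0 in every PBS library and 2 in every rmCIRP library. All 3 epithelial markers tested were lower with rmCIRP (median -1.24). In TLR4-/- against WT libraries with PBS, 7 of 9 endothelial markers were lower and 1 higher (median -1.48). The sum of the 9 differed less, at 770.4 to 838.7 normalized counts against 839.2 to 1183, so that the ranges nearly met. All 3 epithelial markers tested were higher (median 1.89), at a sum of 329 to 350 over 11 genes against 82.2 to 123.

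**Figure D5:**
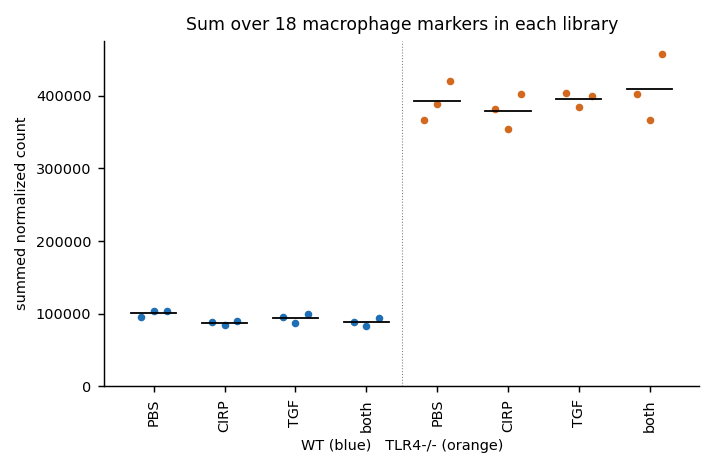
Summed normalized count of 18 macrophage markers in each library (linear axis from 0), by condition; a point is a library, a black line the mean of 3, blue is WT and orange is labelled TLR4-/-. The 12 TLR4-/- libraries lie between 354219 and 456983 and the WT libraries between 83003 and 104097.

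With rmCIRP in both genotypes, the members split. H2-D1 stayed higher in TLR4-/- than in WT (11135, 11977 and 12455 against 7072, 7721 and 8471, log2 fold change 0.62, adjusted p = 2.81e-07, edgeR), and H2-K1 (0.19) and B2m (0.09) were called higher with libraries that overlapped. The call of B2m was lost in 5 of 12 alternatives and that of H2-K1 in 2. Lower in TLR4-/- were 6 members, against 29.2% of all genes called lower and 30.4% called higher: Tap1 by 2.14, Nlrc5 by 0.94, Psmb10 by 0.77, Psmb8 by 0.74, Tapbp by 0.67 and Tap2 by 0.64 on the log2 scale. Psmb9 was at 132, 134 and 139 in TLR4-/- and 143, 159 and 191 in WT, a log2 fold change of -0.28 that missed the threshold (adjusted p = 0.14). Of the chains, H2-D1 alone was thus above WT without overlap. The 3 of 10 members called higher are close to the 30.4% of all genes. The transporter, tapasin, Nlrc5 and 2 of 3 immunoproteasome genes were below the WT level.

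Across the 8 conditions the lowest mean was in WT PBS or WT rmTGF-β1 for every member. The highest mean was in WT rmCIRP for Tap1, Tapbp, Psmb8, Psmb9, Psmb10 and Nlrc5, and in WT with both proteins for Tap2. For H2-K1 and H2-D1 it was in TLR4-/- with both proteins, and for B2m in TLR4-/- with PBS. Without replicate 3 of the TLR4-/- libraries with both proteins, that condition fell to 6473 for H2-K1 and 11985 for H2-D1, and the highest mean was in TLR4-/- with PBS (6764 and 12942). The libraries of the 2 rmCIRP conditions in WT overlapped for all 10 members, and the test between them called only Nlrc5 and Psmb10, as given above. The 4 TLR4-/- conditions, put in order of their means, likewise overlapped with their neighbours for 8 of the 10 members. The exceptions among neighbours were B2m, whose rmCIRP libraries (21620 to 22352) lay just below its rmTGF-β1 libraries (22395 to 23364), and Psmb9, whose rmCIRP libraries (132 to 139) lay below its PBS libraries (142 to 177). Some conditions that were not neighbours also lay apart. Tap2 with rmTGF-β1 (590 to 632) was above PBS (528 to 582) and rmCIRP (535 to 583). B2m with both proteins (22997 to 23982) was above rmCIRP, as was B2m with PBS (22795 to 25286). Psmb9 with both proteins (104 to 129) was below rmCIRP and PBS.

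The pattern of the set was compared with that of 12301 other genes whose mean level reached 50 normalized counts. The measure was the root mean square difference, over the 8 conditions, between a gene's log2 level relative to WT PBS and the median of the members. Over all these genes the median was 0.907, and the members themselves ran from 0.229 for H2-K1 to 1.27 for Nlrc5. The 5 nearest genes were Fmnl2 (0.0960), Atf3 (0.133), Ccl8 (0.133), Slfn10-ps (0.142) and H2-Ab1 (0.145). Fmnl2 encodes a formin that builds actin filaments, Atf3 a stress-induced transcription factor, Ccl8 a chemokine and H2-Ab1 a chain of MHC class II. H2-Ab1 was 1.03 above WT PBS with rmCIRP in WT and 1.12 above it in TLR4-/- with PBS, on the log2 scale.

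By position, 7 of the 10 members lie on chromosome 17 in the order Tapbp, H2-K1, Psmb9, Tap1, Psmb8, Tap2 and H2-D1. B2m is on chromosome 2, and Psmb10 and Nlrc5 are on chromosome 8. Members outside the chromosome 17 cluster were at both ends of the response to rmCIRP in WT, with Nlrc5 the highest and B2m the lowest. Some exons overlap those of a gene on the other strand: Tap1 and Psmb9 share 212 bases with each other, and 23.53% of Tapbp, 19.84% of Tap2 and 11.43% of Psmb8 exon bases are shared with annotated opposite-strand genes. The strand setting of the counting is not given in the sources used here, so reads in these stretches could belong to either gene or be left out. H2-K1, H2-D1, B2m and Psmb10 have no overlap of this kind, and all 4 were called higher with rmCIRP in WT like the others.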

How the data were processed

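RNA was made into stranded total RNA libraries. Reads were aligned by the authors with STAR2 (mouse GENCODE reference). What they deposited is 1 table of raw ht-seq counts per gene symbol for each library, with no normalization. The submitters' processing notes name HTSeq, FastQC and the build NCBIM37. The annotation release, the strand option and the tool versions are not given in the sources used here. The 5 tally lines of each file were left out of totals and tests: ambiguous reads were 4.57 to 5.23% and reads not aligned uniquely 6.07 to 6.82% of the reads tallied.

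Libraries were assigned by their labels and none was left out. In R 4.3.3, edgeR 4.0.16 kept 16258 of the 34285 genes with a count (filterByExpr), scaled libraries by TMM and fitted 1 model with a mean for each of 8 conditions. For 13 contrasts the quasi-likelihood F-test was used, with Benjamini-Hochberg adjustment over all genes and a threshold of an adjusted p under 0.1. A standard error is the log2 fold change over the root of its F. Normalized counts (counts over DESeq2 1.42.0 size factors) did not enter the edgeR tests. They gave the levels and what was read from them: pair shares, marker sums, overlap of libraries and replicate ranks. The edgeR step, and no other, was tested on simulated counts. Alternatives were RLE scaling, no filter, a filter at a mean count of 10, DESeq2, only the libraries compared, the replicate number as a block, and leaving out each library.

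The 10 members are all described. From each other list, the 2 genes that rose most and the 2 that fell most past the threshold in WT with rmCIRP are named (mean of at least 50 normalized counts), together with Psmb5, Psmb6, Psmb7, Psme1, Psme2, Irf1, Rfx5 and Tlr4. One gene that this rule selects is not reported here. Ifngr1, H2-M3 and Lyz2, where named, were chosen after their values were seen. The members and lists were chosen with earlier results of these data known. GENCODE M21 (53292 of 55291 names matched) gave exon lengths and overlaps, and promoters are from RefSeq (GRCm38.p6), which held 8 of the 10 members.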

Additional observations from a re-analysis of the deposited data

Results flagged for a closer look

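The unequal response of the genotypes to rmCIRP drew attention for all 10 members, because the contrast of the 2 responses itself passed the threshold (edgeR, adjusted p at most 7.39e-06). On the log2 scale, as TLR4-/- minus WT, it was -3.13 for Nlrc5, -2.66 for Tap1, -2.44 for Psmb9, -2.06 for Psmb8, -1.44 for Psmb10, -1.25 for Tapbp, -1.04 for H2-K1, -0.86 for Tap2, -0.79 for H2-D1 and -0.63 for B2m. Of all genes, 14.3% were called in this direction. The members began higher in TLR4-/- libraries with PBS, and the sum of 18 macrophage markers was 367083 to 420286 there against 95561 to 104097 in WT. The part of that difference in these values was not tested.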

How the results depend on the processing

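For the members called in 6 comparisons, and for Psmb9 in TLR4-/- against WT with rmCIRP, 684 log2 fold changes were computed under alternatives: 666 kept direction and side of the threshold, 15 lost the threshold, 3 (all Psmb9) gained it and 0 changed sign. Calls gained by other members enter only the counts that follow. The count of members called stayed at 10 or at 0 in 9 of the 13 comparisons. In WT, both proteins against rmCIRP gave 2 members in the reported fit, 5 without a filter on low counts, and 0 to 5 when 1 library was left out. In TLR4-/- cells, rmTGF-β1 against PBS gave 0 members, 1 without the filter and 0 to 1 with a library left out, and both proteins against rmCIRP gave 0, 2 without the filter, 1 with DESeq2 and 0 to 2 with a library left out. TLR4-/- against WT with rmCIRP gave 9 members, 8 with RLE scaling, 10 with only the libraries compared, and 7 to 9 with a library left out. The causes were not tested. Pairing by replicate number was weak. Over 84 pairs of same-numbered libraries the mean correlation of residuals was 0.012 (-0.117 to 0.369), against -0.00597 for different numbers. Among the 3 numbers, 12 of 24 libraries correlated best with their own. A block for the replicate number gave counts of 4, 1 and 2 of members for both proteins against rmCIRP in WT, and for rmTGF-β1 against PBS and both proteins against rmCIRP in TLR4-/- cells. Counts over all genes moved by more than 1.5 times for rmCIRP against PBS in TLR4-/- cells: 0 in the reported fit, 149 without the filter, 1 with the block, 32 with DESeq2, 29 with only the libraries compared, and 0 to 9 with a library left out. Such counts also moved for both proteins against rmTGF-β1 in TLR4-/- cells (437, and 0 to 2674 over the alternatives), for both proteins against rmCIRP there (5329, and 2710 with only the libraries compared), for rmTGF-β1 against PBS (WT 2019, and 1029 at the lowest with a library left out; TLR4-/- 3884, and 2517), for the unequal response to rmTGF-β1 (14, and 0 to 563) and for the interaction in WT (8, and 2 to 198). In WT with rmCIRP, the number of genes called lower went from 2 to 1 among other class I genes and from 3 to 1 among regulators without the filter and in some fits with a library left out. Depth limits Psmb9 most, at 17 raw reads in its lowest library.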

Other observations

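The replicates of WT cells with rmCIRP differed in the same order for the whole set. Replicate 2 was the lowest of the 3 libraries for 10 of 10 members and replicate 3 the highest for 10 of 10, where 36.4% and 35% of all genes tested had these ranks. In WT cells with both proteins, replicate 3 was the highest for 10 of 10 members, beside 36.3% of all genes. Shared ranks were also present without rmCIRP: replicate 1 was the lowest for 8 of 10 members in WT cells with PBS (36.4% of all genes), and replicate 2 for 9 of 10 in TLR4-/- cells with PBS (30% of all genes). The numbers name libraries only and carry no order.

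The class I-like gene H2-M3, which carries the same spacing of the X2 and Y cores as H2-K1, H2-D1 and B2m, was at 141 to 152 normalized counts in WT PBS libraries and 204 to 263 in WT rmCIRP libraries, a log2 fold change of 0.71 ± 0.11 (SE, edgeR adjusted p = 1.3e-05). It was at 376 to 426 in TLR4-/- PBS libraries. Of the 27 genes with that spacing, it was singled out after its value was seen.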
